A study of Homo sapiens with 12 samples.

Results

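The genes described here are 53 nucleolar ribosome biogenesis factors, the proteins that make, modify, cut and package ribosomal RNA. Rows were taken by gene symbol, and all 53 were found among the 63187 genes measured. They were measured by RNA sequencing of total RNA, after depletion of ribosomal RNA, in an established human line of breast adenocarcinoma cells, MDA-MB-231, which has a mesenchymal character. After growth in high-glucose salt solution with 10% fetal bovine serum, cells were kept for 36 h in 1 of 4 media, all with 3% serum. The deficient medium had neither glucose nor glutamine. The glucose-only medium had 25 mM glucose and no glutamine, the glutamine-only medium had 4 mM glutamine and no glucose, and the full medium had both at these concentrations. There were 3 libraries per medium, lettered A, B and C, and the labels do not state whether they came from separate cultures, so that p-values measure the spread between libraries, which may be technical. The comparisons ask how cells with 1 or neither of these nutrients differ from cells with both.

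Ribosomes are assembled mainly in the nucleolus, where RNA polymerase I copies the ribosomal DNA into 1 long precursor. Small nucleolar ribonucleoproteins (snoRNPs) of the box C/D and box H/ACA classes methylate and pseudouridylate this precursor. The small subunit processome folds and cuts its 18S part, and a separate set of helicases, GTPases and scaffold proteins assembles the 60S subunit. Many of these genes are known targets of the transcription factor MYC, and ribosome production is one of the largest costs of a growing cell.

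The values are normalized counts, numbers of reads that were divided by a size factor of the library, and 1 read was worth 0.661 to 1.3. Libraries held 875033 to 1473587 reads. At this depth 49 of the 53 genes reached a normalized count of 10 in at least 3 of the 12 libraries and were tested, with 9270 genes in all. Adjusted p-values are from limma on log2(normalized count + 1), with Benjamini-Hochberg adjustment over the 9270 genes and a threshold of 0.05. Because of the added 1, a fold change understates the change of a low gene. Protein-coding genes took 47.3 ± 4.34% of reads in deficient, 44.4 ± 2.51% in glucose-only, 51.1 ± 3.34% in glutamine-only and 55.4 ± 3.94% in full medium (SD, n = 3 each). Mitochondrial ribosomal RNA took 16 ± 0.984% in deficient, 12.2 ± 1.09% in glucose-only, 13.9 ± 0.325% in glutamine-only and 9.54 ± 0.939% in full medium (SD, n = 3 each). How far this makeup of the libraries bears on the results was not tested beyond the other scalings given below. The line's own genes VIM, CD44, KRT8, KRT18, EGFR and AXL were all measured. All 5 fibroblast and all 5 blood markers stayed under 10 in every library, as did 2 of 4 endothelial markers (highest value of the 4, 19.7) and 3 of 5 luminal epithelial ones (highest value of the 5, 164).

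The ribosome biogenesis factors were higher, relative to the other genes measured, in cells without glucose and glutamine. Of the 49 tested, 42 rose in deficient against full medium and 0 fell, while 26.3% of all genes tested rose and 25.5% fell. The median log2 change of the 49 was 1.03, that of all genes tested was 0.01, and 25 of the 42 changed at least 2-fold. The 3 deficient libraries all lay above the 3 full-medium libraries for 44 of the 49, a pattern found in 29.1% of all genes tested. They lay above all 9 other libraries for 39 of the 49, against 16.7% of all genes tested. Both counts include RRS1 and PPAN, which passed the filter only through their deficient libraries, so that the filter itself favours this order for them. Together the 53 genes took 0.895 ± 0.0136% of protein-coding reads in deficient, 0.607 ± 0.0221% in glucose-only, 0.545 ± 0.00187% in glutamine-only and 0.471 ± 0.0106% in full medium (SD, n = 3 each). As a share of all reads these values were 0.424 ± 0.0452% in deficient, 0.27 ± 0.0227% in glucose-only, 0.279 ± 0.0172% in glutamine-only and 0.261 ± 0.0194% in full medium (SD, n = 3 each). On that base the 3 deficient libraries still lay above the other 9, while the libraries of the single-nutrient media overlapped those of full medium.

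Some genes enter such a count only through their deficient libraries. Of the 49, 4 (NHP2, UTP4, RRS1 and PPAN) reached 10 in fewer than 3 of the 9 other libraries, and among the remaining 45 genes 41 rose. Without any filter, 41 of all 53 rose, against 8.40% of the 32493 genes with a read. Only 9270 of those genes passed the filter, so that this share is mostly of lower genes than the 53. With libraries set to equal totals the all-gene median shifted by -0.39, and 30 of the 49 rose with 0 falling and a median of 0.63, where 12.6% of all genes tested rose and 40.7% fell. The 12 that rose as reported but not at equal totals were NOP56, DKC1, NOLC1, UTP18, UTP20, NOP14, MPHOSPH10, PES1, RRP1, DDX56, GRWD1 and MRTO4. Bulk RNA does not tell more RNA per cell from a different mix of cells. The values are relative to the other RNA of a library and give no amount per cell, which could have risen, stayed or fallen.

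**Figure D1:**
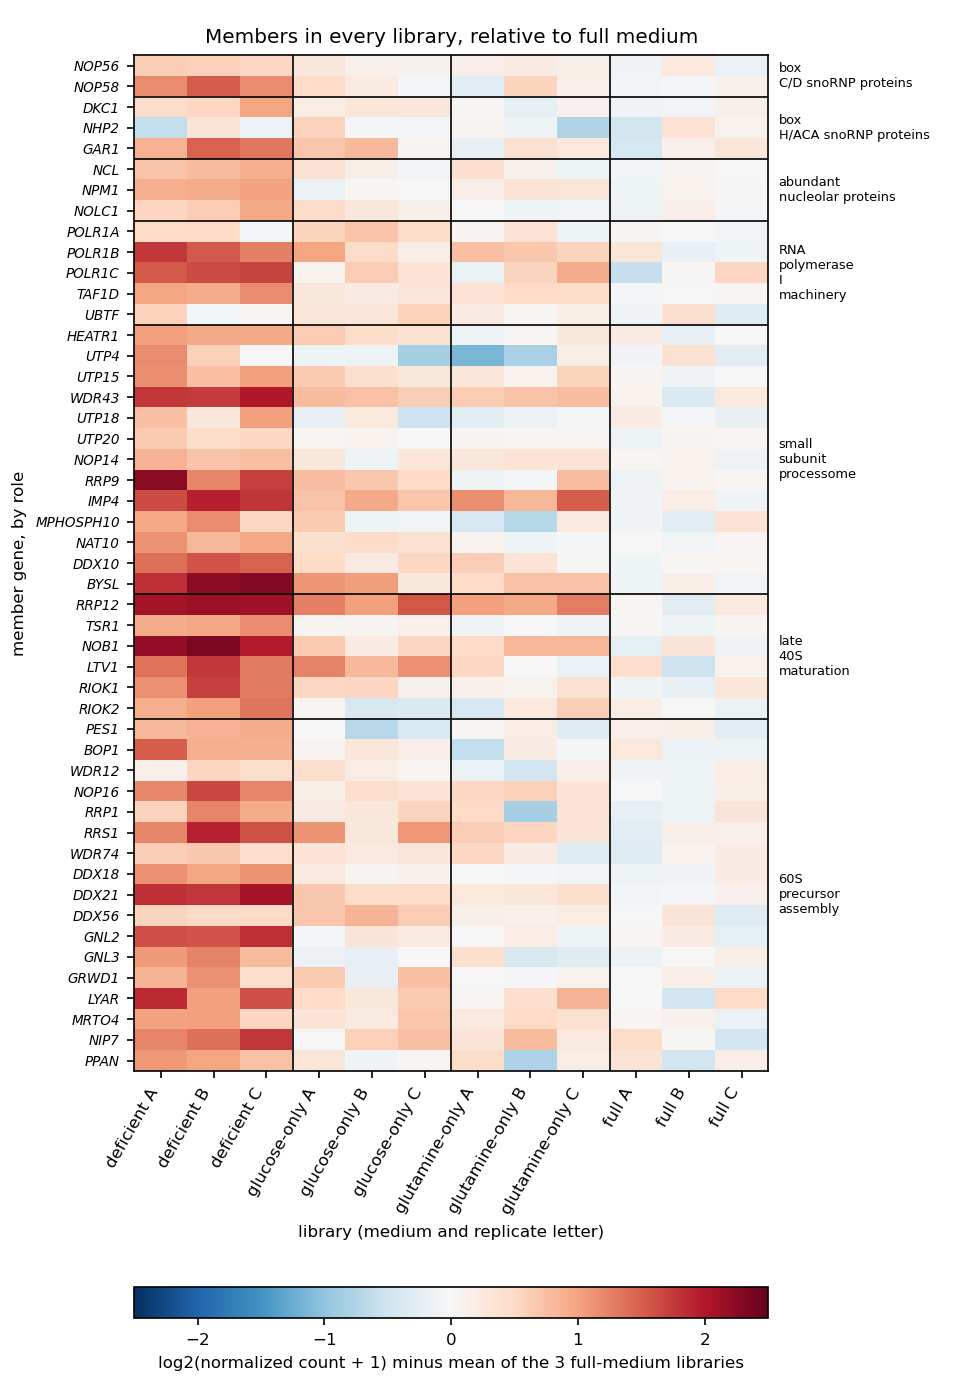
Heat map of the 49 tested genes (rows, by role) in the 12 libraries (columns, by medium); colour is log2(normalized count + 1) minus the mean of the 3 full-medium libraries, red for higher and blue for lower. The 3 deficient columns are red for nearly all genes, while NHP2, UBTF and POLR1A show little or mixed colour there.

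The start regions of these genes were compared because so many moved together. RefSeq gave a window from 250 bases before to 50 bases after the start (GRCh38.p14) for 46 of the 53. The start is the one RefSeq's promoter table uses, and for 5 of the 46 (NPM1, UBTF, BYSL, PES1 and WDR74) it lies at least 100 bases inside the full extent of the gene in RefSeq's gene table. The letters CACGTG, an E-box of the kind bound by MYC with MAX, occurred in 16 of these 46 windows (34.8%), against 8.88% of 15843 protein-coding windows and 10.8% of the 7128 whose gene was tested. The letters read the same on both strands. There were 19 copies in all, 3 genes had 2 copies, and 16 of the 19 began between 50 bases before and 50 bases after the start. The 30-base stretches below are read in the direction of transcription with the E-box in capitals. Of the 12 genes with an E-box that rose in deficient against full medium, they show the 6 with the largest changes and then the 2 with the smallest. Not printed are NAT10, PES1, MRTO4 and NOP14, with log2 changes of 0.97, 0.87, 0.85 and 0.78.
BYSL, chr6:41921515-41921544, plus strand: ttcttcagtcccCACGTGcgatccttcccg
WDR43, chr2:28894658-28894687, plus strand: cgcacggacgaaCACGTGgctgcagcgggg
IMP4, chr2:130342900-130342929, plus strand: ttctcccggaccCACGTGgaagcggcactc
RRP9, chr3:51941892-51941921, minus strand: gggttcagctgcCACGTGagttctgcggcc
GNL2, chr1:37595917-37595946, minus strand: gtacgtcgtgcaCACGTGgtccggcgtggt
LTV1, chr6:143843354-143843383, plus strand: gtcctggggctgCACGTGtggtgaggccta
UTP18, chr17:51260538-51260567, plus strand: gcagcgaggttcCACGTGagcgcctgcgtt
UTP20, chr12:101280083-101280112, plus strand: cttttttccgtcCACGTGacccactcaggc
The first letter of the E-box is base 29 after the start in BYSL, where that start is 12740 bases inside the gene's full extent, base 4 in WDR43 and base 4 in GNL2. It lies 5 bases before the start in RRP9 and 10 bases before it in UTP20. With the motif, 12 of 13 tested genes rose in deficient against full medium with a median log2 change of 0.97, and without it 23 of 29 rose with a median of 0.98; the difference was not tested. Other motifs were rarer. GAANNTTC, paired heat shock units, occurred in 2 of 46 windows (4.35%). It occurred in 5.56% of all protein-coding windows and 4.55% of those whose gene was tested. TGATGNAA, the letters of a C/EBP-ATF composite site, occurred in 0 of 46 on either strand. It occurred in 2.53% of all protein-coding windows and 1.66% of those whose gene was tested. For motifs this rare, 46 windows are too few to show a lack.

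Among the RNA polymerase I genes, 3 of 5 rose in deficient against full medium, where 26.3% of all genes tested rose. The 2 that did not were the largest subunit and the main DNA-binding factor. POLR1A, the largest subunit of the enzyme (chr2:86020216-86105886), had normalized counts of 117, 117 and 81.5 in deficient libraries, 123, 137 and 115 in glucose-only libraries, 86.6, 107 and 77.4 in glutamine-only libraries and 86.6, 83.7 and 78.9 in full-medium libraries. Its highest group was glucose-only medium, all 3 of whose libraries lay above the 3 full-medium ones. The log2 change was 0.32 ± 0.14 (SE, adjusted p = 0.0571) in deficient against full medium and 0.58 ± 0.14 (SE, adjusted p = 0.00292) in glucose-only against full medium. POLR1B, the second-largest subunit, had 83.3, 71.2 and 58.2 in deficient libraries, 48.2, 33.5 and 27 in glucose-only libraries, 40.6, 38.5 and 35.4 in glutamine-only libraries and 29.8, 20.7 and 22 in full-medium libraries. All deficient values of POLR1B were above those of the other 9 libraries, and both single-nutrient media were also above full medium except for glucose-only library C, which was below full-medium library A. Its log2 change was 1.52 ± 0.20 (SE, adjusted p = 2.95e-07) in deficient, 0.54 ± 0.20 (SE, adjusted p = 0.0487) in glucose-only and 0.65 ± 0.20 (SE, adjusted p = 0.0176) in glutamine-only, each against full medium. UBTF, which binds the ribosomal DNA promoter and enhancers, had 58.6, 37.4 and 40.4 in deficient libraries, 48.2, 48.2 and 58.8 in glucose-only libraries, 45.1, 39.5 and 43.8 in glutamine-only libraries and 36.4, 51.7 and 31.2 in full-medium libraries. The UBTF groups overlapped, with a log2 change of 0.19 ± 0.19 (SE, adjusted p = 0.408) in deficient against full medium. POLR1C, a subunit shared with RNA polymerase III, rose by 1.62 ± 0.26 (SE, adjusted p = 5.98e-06) on the log2 scale in the same comparison. TAF1D, a subunit of the promoter selectivity factor SL1, rose by 1.03 ± 0.10 (SE, adjusted p = 7.12e-10), and had means of 338 ± 32.5 in deficient, 198 ± 7.97 in glucose-only, 222 ± 11.1 in glutamine-only and 164 ± 3.17 in full medium (SD, n = 3 each). In the annotation used, 11.2% of the exonic bases of TAF1D are shared with SNORA8, a snoRNA gene on the same strand.

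The box C/D proteins bind guide RNAs of the C/D class and carry out 2'-O-methylation. NOP56, a scaffold protein of the particle, had 158, 155 and 147 in deficient libraries, 124, 112 and 111 in glucose-only libraries, 115, 117 and 113 in glutamine-only libraries and 95.9, 123 and 90.8 in full-medium libraries. All 3 deficient libraries exceeded the other 9, the full-medium libraries spread the most, and the log2 change in deficient against full medium was 0.57 ± 0.12 (SE, adjusted p = 0.000171). NOP58, its partner scaffold, had 88.5, 111 and 88.5 in deficient libraries, 54.2, 45.1 and 37.6 in glucose-only libraries, 31.6, 56.8 and 41.9 in glutamine-only libraries and 36.4, 37.6 and 41.3 in full-medium libraries. The deficient libraries of NOP58 stood clear of a single lower group formed by the other 3 media, and its log2 change was 1.29 ± 0.18 (SE, adjusted p = 7.55e-07). FBL, the methyltransferase itself, was not tested, since its values lay between 0 and 3.73 in all 12 libraries. FBL shares no exonic base with another gene in the annotation used, and the reason for its low values was not tested.

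The box H/ACA proteins bind guide RNAs of the H/ACA class and carry out pseudouridylation. In deficient against full medium 2 of 3 tested rose, where 26.3% of all genes tested did. DKC1, the pseudouridine synthase, had 76.8, 80.9 and 111 in deficient libraries, 63.8, 69.2 and 68.2 in glucose-only libraries, 57.7, 47.2 and 60.6 in glutamine-only libraries and 52.2, 53.6 and 62.4 in full-medium libraries. Its deficient libraries were the 3 highest, library C most of all, with a log2 change of 0.65 ± 0.15 (SE, adjusted p = 0.00062) against full medium. GAR1, a companion protein of the same particle, rose by 1.22 ± 0.27 (SE, adjusted p = 0.000422). NHP2 was the lowest of the 49 in this comparison, with 5.21, 10.9 and 7.76 in deficient libraries, 13.2, 8.38 and 8.23 in glucose-only libraries, 9.02, 7.7 and 4.66 in glutamine-only libraries and 5.95, 11.3 and 9.17 in full-medium libraries. Its values of about 5 to 13 overlapped in all media, and its log2 change was -0.14 ± 0.38 (SE, adjusted p = 0.776). NOP10 reached at most 6.21 and was not tested.

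All 3 abundant nucleolar proteins rose in deficient against full medium, where 26.3% of all genes tested rose. Nucleophosmin, NPM1, a chaperone of histones and ribosomal proteins (chr5:171387116-171410900), was the gene of the 53 with the highest counts and had 741, 749.8 and 793 in deficient libraries, 348, 407 and 390.4 in glucose-only libraries, 439, 491 and 485 in glutamine-only libraries and 364, 415 and 403 in full-medium libraries. The deficient libraries of NPM1 stood far above the rest, glutamine-only libraries were above all full-medium ones, and glucose-only libraries overlapped full medium. Its log2 change was 0.95 ± 0.10 (SE, adjusted p = 2.02e-09) in deficient, -0.05 ± 0.10 (SE, adjusted p = 0.775) in glucose-only and 0.26 ± 0.10 (SE, adjusted p = 0.0489) in glutamine-only against full medium, and -0.31 ± 0.10 (SE, adjusted p = 0.0302) in glucose-only against glutamine-only. NPM1 has many processed copies, and 49 NPM1 pseudogenes together had 13.2 to 32.6 per library, against 348 to 793 for NPM1 itself. Nucleolin, NCL, which binds precursor ribosomal RNA, had 397, 420.2 and 455 in deficient libraries, 316, 268 and 230.5 in glucose-only libraries, 327, 261 and 226 in glutamine-only libraries and 232, 256 and 240.3 in full-medium libraries. Again the deficient values were the 3 highest, the other media overlapped, and the log2 change was 0.80 ± 0.12 (SE, adjusted p = 2.14e-06) against full medium. NOLC1, a chaperone of snoRNPs, had 125, 134 and 166 in deficient libraries, 119, 105 and 95.2 in glucose-only libraries, 86.6, 79 and 82 in glutamine-only libraries and 78.7, 95.9 and 83.5 in full-medium libraries. It was highest in deficient library C, and its log2 change was 0.71 ± 0.13 (SE, adjusted p = 3.52e-05).

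Of the small subunit processome, 12 of 13 tested genes rose in deficient against full medium, where 26.3% of all genes tested rose. BYSL (bystin), which binds the late processome and the early 40S precursor (chr6:41908759-41933046), had 70.3, 94.2 and 98.6 in deficient libraries, 42.2, 40.9 and 23.5 in glucose-only libraries, 27.1, 32.7 and 32.6 in glutamine-only libraries and 17.9, 21.6 and 18.3 in full-medium libraries. Each single-nutrient library lay above each full-medium library and below each deficient one, and the log2 change was 2.12 ± 0.20 (SE, adjusted p = 1.01e-09) in deficient against full medium. WDR43, a subunit of the UTP-A complex that binds the precursor first, had 105, 104 and 124 in deficient libraries, 53, 51.3 and 47 in glucose-only libraries, 47.8, 50.1 and 52.2 in glutamine-only libraries and 32.4, 23.5 and 36.7 in full-medium libraries. Its 4 media fell into 3 levels that did not overlap, with the glucose-only and glutamine-only libraries between 47 and 53, and the log2 change was 1.83 ± 0.16 (SE, adjusted p = 9.41e-11). IMP4, which joins U3 snoRNA to the precursor with IMP3 and MPHOSPH10, had 32.5, 41.1 and 36.5 in deficient libraries, 16.9, 19.9 and 16.5 in glucose-only libraries, 23.5, 18.3 and 29.8 in glutamine-only libraries and 9.26, 11.3 and 9.17 in full-medium libraries. It rose in every medium that lacked a nutrient, by 1.79 ± 0.24 (SE, adjusted p = 5.52e-07) in deficient, 0.78 ± 0.24 (SE, adjusted p = 0.0204) in glucose-only and 1.17 ± 0.24 (SE, adjusted p = 0.000701) in glutamine-only on the log2 scale. Its partner MPHOSPH10 had 29.9, 35 and 21.7 in deficient libraries, 24.1, 13.6 and 14.1 in glucose-only libraries, 10.8, 8.67 and 17.7 in glutamine-only libraries and 13.9, 12.2 and 19.3 in full-medium libraries. Glucose-only library A overlapped the deficient range, and the log2 change of MPHOSPH10 in deficient against full medium was 0.89 ± 0.30 (SE, adjusted p = 0.0145), which was not past the threshold with deficient library B or full-medium library B left out. IMP3 reached at most 9.66, was not tested, and shares 59.3% of its exonic bases with SNX33 on the opposite strand.

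HEATR1, another UTP-A component, had 83.3, 78.5 and 78.4 in deficient libraries, 62.6, 55.5 and 52.9 in glucose-only libraries, 37, 41.4 and 49.4 in glutamine-only libraries and 46.3, 34.8 and 40.4 in full-medium libraries. Its deficient values were close together and the highest, and glucose-only libraries were above all full-medium ones, with log2 changes of 0.98 ± 0.15 (SE, adjusted p = 5.2e-06) and 0.49 ± 0.15 (SE, adjusted p = 0.0207) against full medium. NAT10, which acetylates cytidines of 18S ribosomal RNA, had 134, 109.9 and 119.6 in deficient libraries, 80.7, 84.9 and 80 in glucose-only libraries, 64.9, 56.8 and 58.7 in glutamine-only libraries and 61.5, 58.3 and 63.3 in full-medium libraries. It rose in deficient medium by 0.97 ± 0.13 (SE, adjusted p = 1.87e-07) and in glucose-only medium by 0.42 ± 0.13 (SE, adjusted p = 0.0155), while its glutamine-only libraries overlapped full medium. UTP4, also of UTP-A, was low and had 22.1, 14.5 and 9.32 in deficient libraries, 8.43, 8.38 and 4.7 in glucose-only libraries, 3.61, 4.82 and 10.3 in glutamine-only libraries and 8.6, 12.2 and 7.34 in full-medium libraries. The deficient libraries of UTP4 were spread from 9.32 to 22.1, overlapped full medium, and gave a log2 change of 0.60 ± 0.40 (SE, adjusted p = 0.212). The other 6 tested genes of this group all rose, by 0.55 for UTP20, 0.69 for UTP18, 0.78 for NOP14, 0.98 for UTP15, 1.48 for the helicase DDX10 and 1.72 for the U3 protein RRP9 on the log2 scale. UTP18 was not past the threshold without deficient library C.

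**Figure D2:**
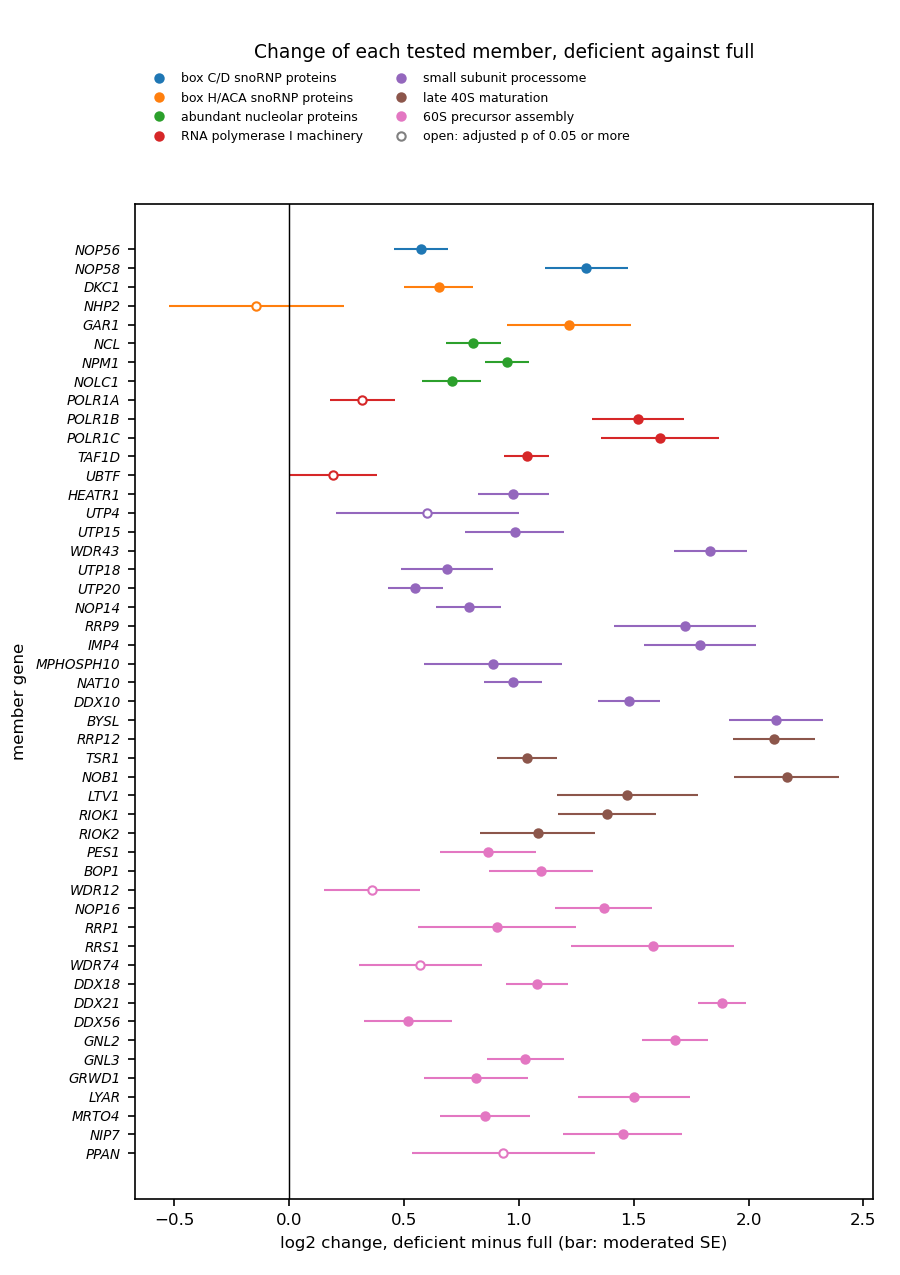
Log2 change of each tested gene in deficient against full medium (points) with its moderated standard error (bars), coloured by role; open points did not pass the adjusted p threshold of 0.05. Changes run from -0.14 for NHP2 to 2.17 for NOB1, and 7 points are open.

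All 6 factors of late 40S maturation rose in deficient against full medium, where 26.3% of all genes tested rose. They include 2 of the 3 largest changes. NOB1, the endonuclease that makes the 3' end of 18S ribosomal RNA (chr16:69741871-69754926), had 61.2, 67.6 and 52.8 in deficient libraries, 20.5, 14.7 and 18.8 in glucose-only libraries, 18, 23.1 and 23.3 in glutamine-only libraries and 10.6, 16 and 11.9 in full-medium libraries. Its deficient libraries were more than double any other library, and the log2 change was 2.17 ± 0.23 (SE, adjusted p = 6.14e-09). A gene annotated as AC092115.3 on the opposite strand shares 20.2% of its exonic bases. RRP12, an export factor of both subunits in yeast (chr10:97356357-97401370), had 82, 84.5 and 83.9 in deficient libraries, 45.8, 38.8 and 56.4 in glucose-only libraries, 38.8, 36.6 and 46.6 in glutamine-only libraries and 19.2, 15 and 22 in full-medium libraries. The 3 deficient values were nearly equal, both single-nutrient media lay between them and full medium, and the log2 change was 2.11 ± 0.18 (SE, adjusted p = 6.34e-11) in deficient, 1.28 ± 0.18 (SE, adjusted p = 3.6e-06) in glucose-only and 1.09 ± 0.18 (SE, adjusted p = 3.59e-05) in glutamine-only against full medium. LTV1, which must leave the 40S precursor before it matures, had 23.4, 31.4 and 22.5 in deficient libraries, 21.7, 15.7 and 20 in glucose-only libraries, 12.6, 8.67 and 7.46 in glutamine-only libraries and 11.9, 5.64 and 9.17 in full-medium libraries. Deficient libraries were the highest, glucose-only libraries came next, and both lay above all glutamine-only and full-medium libraries, with log2 changes of 1.47 ± 0.31 (SE, adjusted p = 0.000207) and 1.06 ± 0.31 (SE, adjusted p = 0.0119) against full medium. On the same strand, AL049844.3 shares 34.8% of the exonic bases of LTV1. RIOK2, a kinase of the 40S precursor, had 37.7, 41.1 and 51.2 in deficient libraries, 20.5, 14.7 and 15.3 in glucose-only libraries, 14.4, 24.1 and 30.8 in glutamine-only libraries and 22.5, 19.7 and 17.4 in full-medium libraries. Its deficient values were the highest, its glutamine-only values ranged widely, and the log2 change was 1.08 ± 0.25 (SE, adjusted p = 0.000655). TSR1, a GTPase-like factor, and the kinase RIOK1 rose by 1.03 and 1.38 on the log2 scale.

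Of the 60S assembly factors, 14 of 17 tested rose in deficient against full medium, where 26.3% of all genes tested rose. PES1, BOP1 and WDR12 form the PeBoW complex, which is needed to remove the internal spacer between 5.8S and 28S ribosomal RNA. PES1 had 49.5, 51.9 and 53.6 in deficient libraries, 27.7, 16.8 and 21.2 in glucose-only libraries, 28.9, 31.8 and 22.4 in glutamine-only libraries and 30.4, 31 and 22.9 in full-medium libraries. Deficient libraries were the highest and glucose-only ones the lowest on average, with log2 changes of 0.87 ± 0.21 (SE, adjusted p = 0.00106) and -0.36 ± 0.21 (SE, adjusted p = 0.222) against full medium. BOP1 had 70.3, 45.9 and 45 in deficient libraries, 25.3, 29.3 and 27 in glucose-only libraries, 15.3, 27.9 and 23.3 in glutamine-only libraries and 29.1, 21.6 and 22 in full-medium libraries. It stood highest in deficient library A, all deficient values exceeded the other 9, and the log2 change was 1.10 ± 0.23 (SE, adjusted p = 0.000186). WDR12 had 29.9, 39.8 and 37.3 in deficient libraries, 37.3, 31.4 and 28.2 in glucose-only libraries, 24.4, 19.3 and 30.8 in glutamine-only libraries and 25.8, 25.4 and 31.2 in full-medium libraries. Its groups overlapped and its log2 change was 0.36 ± 0.21 (SE, adjusted p = 0.149), so that the 3rd gene of the complex was not called.

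DDX21, an RNA helicase of ribosomal RNA transcription and processing (chr10:68956170-68985068), had 545, 523 and 651 in deficient libraries, 246, 212 and 214 in glucose-only libraries, 185, 189.7 and 209 in glutamine-only libraries and 147, 149 and 166 in full-medium libraries. No 2 of the media overlapped, with deficient highest, then glucose-only, glutamine-only and full medium, and the log2 change in deficient against full medium was 1.88 ± 0.10 (SE, adjusted p = 6.23e-15), or 3.69-fold. GNL2, a GTPase of the 60S precursor (chr1:37566816-37595937), had 165, 161 and 194 in deficient libraries, 51.8, 67.1 and 62.3 in glucose-only libraries, 53.2, 60.7 and 49.4 in glutamine-only libraries and 54.9, 61.1 and 44.9 in full-medium libraries. Deficient libraries were 161 or more and all 9 others 67.1 or less, with a log2 change of 1.68 ± 0.14 (SE, adjusted p = 7.49e-11). GNL3 (nucleostemin), a related GTPase, had 126, 144 and 105 in deficient libraries, 54.2, 52.4 and 60 in glucose-only libraries, 80.3, 45.3 and 48.5 in glutamine-only libraries and 54.2, 60.2 and 67 in full-medium libraries. Its deficient libraries were the highest, the other media overlapped, and the log2 change was 1.03 ± 0.17 (SE, adjusted p = 9.15e-06). RRS1, which helps to bring in the 5S particle, was low and had 13, 21.7 and 17.1 in deficient libraries, 12, 6.29 and 11.8 in glucose-only libraries, 8.12, 7.7 and 6.52 in glutamine-only libraries and 3.97, 5.64 and 5.5 in full-medium libraries. It stayed under 10 in every full-medium library, reached 10 in only 2 of the 9 non-deficient libraries and so was tested through its deficient ones. With that limit it rose by 1.58 ± 0.35 (SE, adjusted p = 0.000467) on the log2 scale, with 11.4% of its exonic bases shared with AC009879.2 on the same strand.

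For the other 60S factors that rose, the log2 change was 1.08 for the helicase DDX18, 1.5 for LYAR, 1.45 for NIP7, 1.37 for NOP16, 0.91 for RRP1, 0.85 for MRTO4, 0.81 for GRWD1 and 0.52 for the helicase DDX56. RRP1 was lost when any of 4 libraries was left out (deficient B or C, full A or B), and DDX56 without deficient A, full A or full C, without the filter on low values, and by DESeq2. WDR74 at 0.57 ± 0.27 (SE, adjusted p = 0.0759) and PPAN at 0.93 ± 0.40 (SE, adjusted p = 0.051) did not pass the threshold. PPAN had 10.1 to 13 in deficient libraries and at most 8.12 in the others, and 59.8% of its exonic bases are shared with the readthrough gene PPAN-P2RY11. NOP2, a cytosine methyltransferase of 28S ribosomal RNA, reached at most 6.51, was not tested, and shares 54.4% of its exonic bases with AC006064.6 on the same strand.

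In all, 5 tested genes share at least 10% of their exonic bases with a gene on the same strand and 9 with a gene on the opposite strand. The library kit keeps strand, but the strand setting of the counting is not given in the sources used here, so that reads of these genes are uncertain.

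Fewer of the genes rose in cells that lacked only glutamine. In glucose-only against full medium 13 of the 49 rose and 0 fell, where 9.44% of all genes tested rose and 13.5% fell. The median log2 change was 0.35, against -0.03 over all genes tested. The 13 were POLR1A, POLR1B, TAF1D, HEATR1, WDR43, IMP4, NAT10, DDX10, BYSL, RRP12, LTV1, DDX21 and DDX56, with RRP12 (1.28), LTV1 (1.06) and BYSL (0.81) the largest on the log2 scale. With libraries set to equal totals the all-gene median shifted by -0.21, and 4 of the 49 rose, where 4.27% of all genes tested rose and 23.2% fell. Without glucose-only library A the count was 8. WDR43, BYSL and RRP12 passed the threshold under every alternative in which they were tested, and each of the other 10 lost its call under at least 1, POLR1A and DDX21 at equal totals alone.

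The count was smaller again in cells that lacked only glucose. In glutamine-only against full medium 9 of the 49 rose and 0 fell, where 10.8% of all genes tested rose and 11.6% fell. The median log2 change was 0.15, against -0.01 over all genes tested. The 9 were IMP4 (1.17), RRP12 (1.09), NOB1 (0.71), WDR43 (0.70), POLR1B (0.65), BYSL (0.65), TAF1D (0.44), DDX21 (0.33) and NPM1 (0.26), with log2 changes in brackets. The 3 lowest, none past the threshold, were UTP4 at -0.60 ± 0.40 (SE, adjusted p = 0.305), MPHOSPH10 at -0.30 ± 0.30 (SE, adjusted p = 0.533) and NHP2 at -0.27 ± 0.38 (SE, adjusted p = 0.678). With equal totals 3 of the 49 rose and 0 fell, where 6.79% of all genes tested rose and 14.7% fell, so that the share of these genes was near or under that of all genes. The count was 5 without glutamine-only library B, full-medium library A or full-medium library C. WDR43, IMP4 and RRP12 passed under every alternative in which they were tested, and NPM1, whose adjusted p was close to the threshold, lost its call without any 1 of 8 libraries, at equal totals and by DESeq2.

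The single-nutrient media were also compared directly. In glucose-only against glutamine-only medium 4 of the 49 were higher and 1 was lower, where 5.05% and 8.26% of all genes tested were. The 4 were LTV1 at 0.95 ± 0.31 (SE, adjusted p = 0.0379), DDX56 at 0.57 ± 0.19 (SE, adjusted p = 0.0468), POLR1A at 0.48 ± 0.14 (SE, adjusted p = 0.0212) and NAT10 at 0.44 ± 0.13 (SE, adjusted p = 0.0172). NPM1 was the one that was lower. All 3 glucose-only libraries of DDX56, at 39.7, 45.1 and 38.8, lay above its 3 glutamine-only libraries at 27.1, 27 and 28. With equal totals 0 were higher and 1 was lower, and each of the 5 calls was lost by DESeq2 and without at least 1 glucose-only or glutamine-only library.

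**Figure D3:**
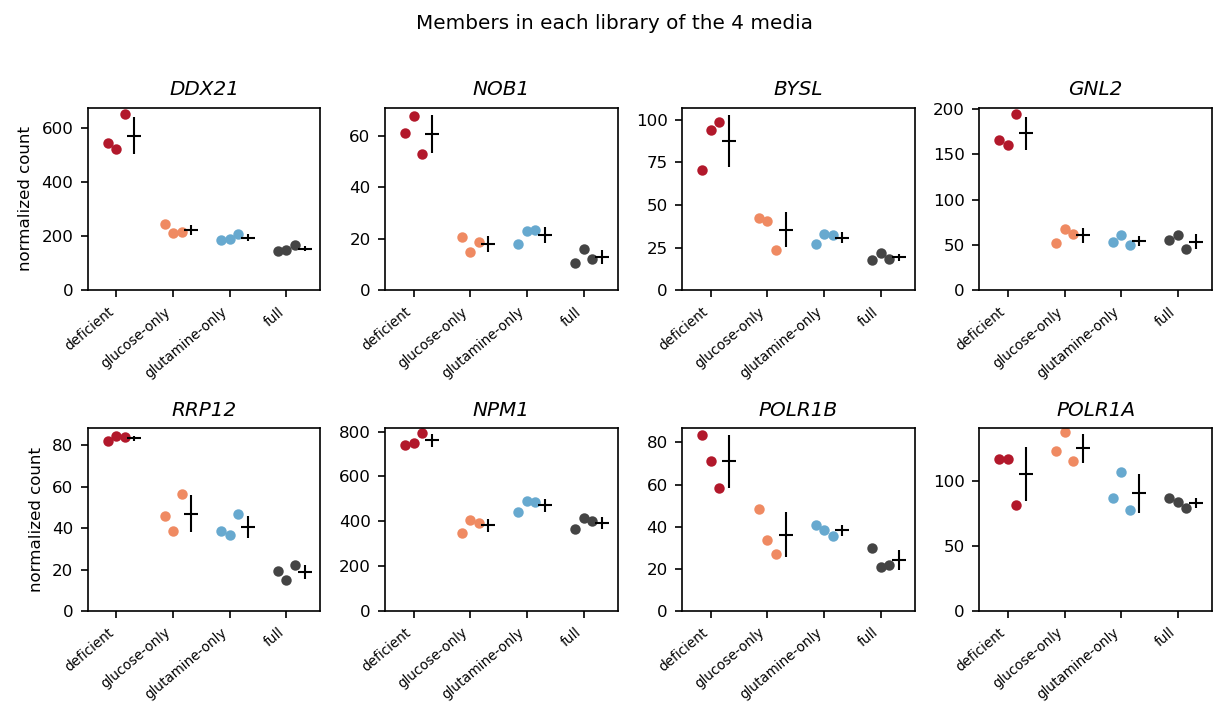
Normalized counts of 8 genes in each library (points, 3 per medium) with the mean and SD of each medium (black); each y axis starts at 0. In 7 panels the deficient libraries are the highest, and in the POLR1A panel the glucose-only mean is the highest.

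Against media with 1 nutrient, the deficient medium still stood apart. In deficient against glucose-only medium 36 of the 49 rose and 0 fell, where 23.2% of all genes tested rose and 20.1% fell (43.2% in either direction), with a median log2 change of 0.84. In deficient against glutamine-only medium 44 rose and 0 fell, where 21.6% rose and 19.9% fell, with a median of 0.93. Among the 45 genes that did not need their deficient libraries to be tested, 36 rose against glucose-only and 41 against glutamine-only medium. The 5 not past the threshold in the second comparison were NHP2, POLR1A, UBTF, WDR74 and DDX56. Against glucose-only medium NHP2 (-0.31), POLR1A (-0.26), DDX56 (-0.21) and UBTF (-0.20) had negative log2 changes, none past the threshold, and with equal totals POLR1A was lower in deficient than in glucose-only medium.

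The interaction asks whether the loss of both nutrients differed from the sum of the separate losses on the log2 scale. It was above 0 and past the threshold for 18 of the 49 and below 0 for 0, where 15.5% of all genes tested were above and 11% below (26.5% in either direction). The median was 0.56, against 0.06 over all genes tested. Among the 45 genes that did not need their deficient libraries to be tested, 17 passed. UTP4, which reached 10 in only 2 of the 9 other libraries and so was tested through its deficient ones, had the largest value at 1.56 ± 0.56 (SE, adjusted p = 0.0398), followed by GNL2 at 1.48 ± 0.20 (SE, adjusted p = 2.41e-06), PES1 at 1.25 ± 0.30 (SE, adjusted p = 0.00216), GNL3 at 1.25 ± 0.24 (SE, adjusted p = 0.000241) and RIOK2 at 1.17 ± 0.35 (SE, adjusted p = 0.0144). In all 5 the changes in glucose-only and glutamine-only medium were small or negative and not past the threshold (for GNL2 0.17 and 0.03 against full medium), beside 1.68 for GNL2 in deficient medium. GNL2, PES1 and GNL3 passed under every alternative in which they were tested, RIOK2 did not without glutamine-only library A, and UTP4 did not under 11 alternatives, edgeR, DESeq2 and 7 libraries left out in turn among them. RRP12 and IMP4, which rose in both single-nutrient media, had interaction values of -0.25 ± 0.25 (SE, adjusted p = 0.494) and -0.16 ± 0.35 (SE, adjusted p = 0.773).

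**Figure D4:**
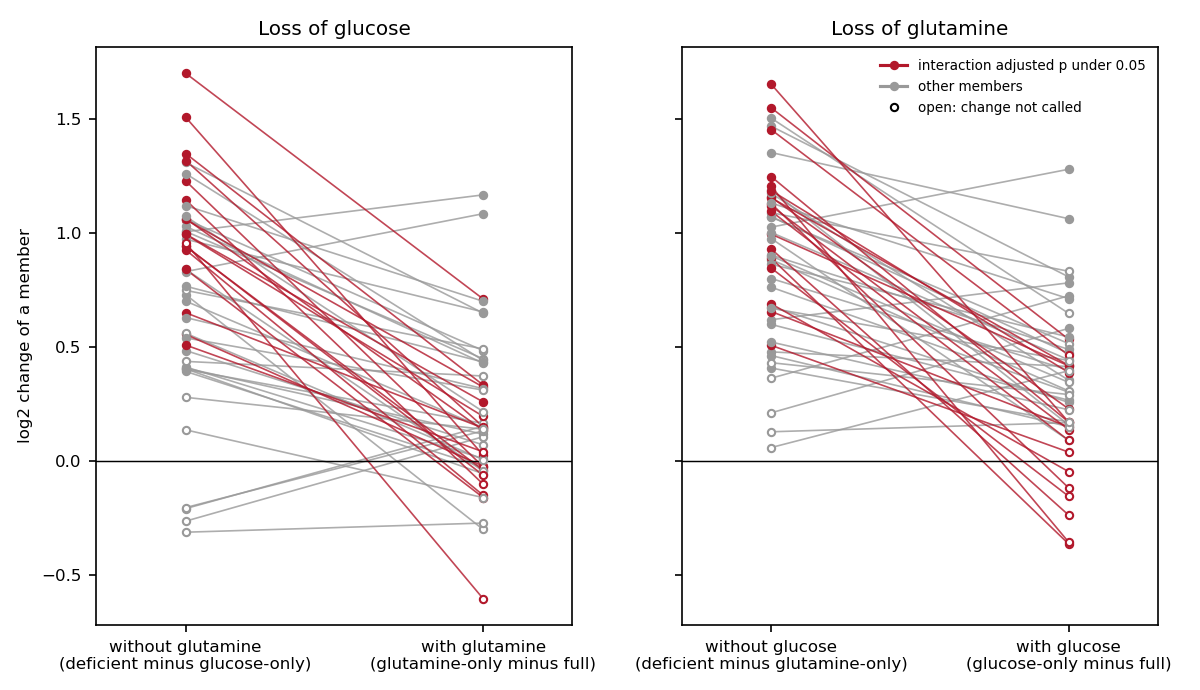
Log2 change of each tested gene on loss of glucose (left panel) and on loss of glutamine (right panel), each in the absence and in the presence of the other nutrient, joined by a line per gene; red marks the 18 genes whose interaction passed the threshold and open points a change that did not. The points of most genes lie higher where the other nutrient was also missing, and both panels share the same 4 media.

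MYC, whose protein is known to activate many of these genes, had normalized counts of 311, 318 and 329 in deficient libraries, 85.5, 79.6 and 95.2 in glucose-only libraries, 71.3, 71.3 and 76.4 in glutamine-only libraries and 42.3, 49.8 and 39.4 in full-medium libraries. No 2 of the media overlapped for MYC, which was highest in deficient and lowest in full medium, and its log2 change was 2.84 ± 0.12 (SE, adjusted p = 1.35e-17) in deficient, 0.97 ± 0.12 (SE, adjusted p = 4.71e-07) in glucose-only and 0.73 ± 0.12 (SE, adjusted p = 3.8e-05) in glutamine-only against full medium. Of the 8 genes of the MYC list, 4 rose and 2 fell in deficient against full medium, where 26.3% and 25.5% of all genes tested did. With equal totals 3 rose and 3 fell, where 12.6% and 40.7% of all genes tested did. The MYC antagonist MXD1 had a log2 change of 2.80 ± 0.28 (SE, adjusted p = 2.56e-09) and MXD3 of -2.00 ± 0.37 (SE, adjusted p = 4.18e-05).

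Other ribosome biogenesis factors, a list of 101 further genes, gave the following counts. Of 85 tested, 59 rose and 2 fell in deficient medium, where 26.3% and 25.5% of all genes tested did, with a median log2 change of 0.84. With equal totals 39 rose and 5 fell. The largest changes were in NIFK (2.27 ± 0.27 (SE, adjusted p = 5.46e-08)), which binds the Ki-67 protein, in RCL1 (2.13 ± 0.42 (SE, adjusted p = 0.000102)) and in WDR3 (2.02 ± 0.19 (SE, adjusted p = 5.19e-10)). In glucose-only medium 21 of the 85 rose and 0 fell, where 9.44% and 13.5% of all genes tested did. In glutamine-only medium 10 rose and 1 fell, where 10.8% and 11.6% of all genes tested did, so that the share that rose was near that of all genes. With equal totals these counts were 2 and 1 in glucose-only and 3 and 3 in glutamine-only medium. Of 7 other RNA polymerase I genes tested, 4 rose and 0 fell in deficient medium, led by POLR1E (1.55 ± 0.29 (SE, adjusted p = 6.67e-05)), TAF1A (1.53 ± 0.33 (SE, adjusted p = 0.000311)) and POLR1G (1.52 ± 0.43 (SE, adjusted p = 0.00384)). TTF1, the transcription terminator of ribosomal DNA, had means of 17.4 ± 0.716 in deficient, 18 ± 5.27 in glucose-only, 17.4 ± 1.61 in glutamine-only and 18.2 ± 2.94 in full medium (SD, n = 3 each).

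Of 14 RNA exosome genes tested, which trim ribosomal RNA precursors, 4 rose and 1 fell in deficient medium, where 26.3% and 25.5% of all genes tested did, and the log2 change was 1.5 ± 0.23 (SE, adjusted p = 3.89e-06) for EXOSC5, 1.43 ± 0.23 (SE, adjusted p = 9.49e-06) for MPHOSPH6 and 1.13 ± 0.21 (SE, adjusted p = 5e-05) for EXOSC6. Of 15 RNA polymerase III genes tested, 4 rose and 1 fell in the same comparison. For both lists the share that rose was near the 26.3% of all genes tested. Of the RNA polymerase III genes, POLR3G rose the most at 1.53 ± 0.35 (SE, adjusted p = 0.000675). The next largest were POLR3D at 0.77 ± 0.28 (SE, adjusted p = 0.0223) and POLR3C at 0.69 ± 0.18 (SE, adjusted p = 0.00254). With equal totals the exosome counts were 4 and 3 and the RNA polymerase III counts 1 and 3. In that setting 12.6% of all genes tested rose and 40.7% fell. Of 17 long RNAs that host snoRNAs, 12 rose and 1 fell in deficient medium, with SNHG7 at 1.92 ± 0.26 (SE, adjusted p = 3.5e-07), EPB41L4A-AS1 at 1.79 ± 0.19 (SE, adjusted p = 5.86e-09) and SNHG17 at 1.52 ± 0.18 (SE, adjusted p = 3.32e-08). Of these hosts 10 of 17 rose in glucose-only and 11 of 17 in glutamine-only medium, where 9.44% and 10.8% of all genes tested did, and 8 and 5 rose with equal totals.

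Genes of cell division went the other way. Of 15 proliferation genes, 14 fell and 0 rose in deficient medium, 10 fell in glucose-only and 15 fell in glutamine-only medium. Of all genes tested, 25.5% fell in deficient, 13.5% in glucose-only and 11.6% in glutamine-only medium, each against full medium. TOP2A, which untangles DNA, had means of 60.3 ± 2.27 in deficient, 205 ± 18.5 in glucose-only, 154 ± 8.54 in glutamine-only and 573 ± 32 in full medium (SD, n = 3 each), with a log2 change of -3.23 ± 0.10 (SE, adjusted p = 1.77e-20) in deficient medium. MKI67 changed by -2.69 ± 0.12 (SE, adjusted p = 3.51e-17) and AURKA by -2.63 ± 0.28 (SE, adjusted p = 5.08e-09). With equal totals 15 of the proliferation genes fell and 0 rose in deficient medium, a setting in which 40.7% of all genes tested fell.

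**Figure D5:**
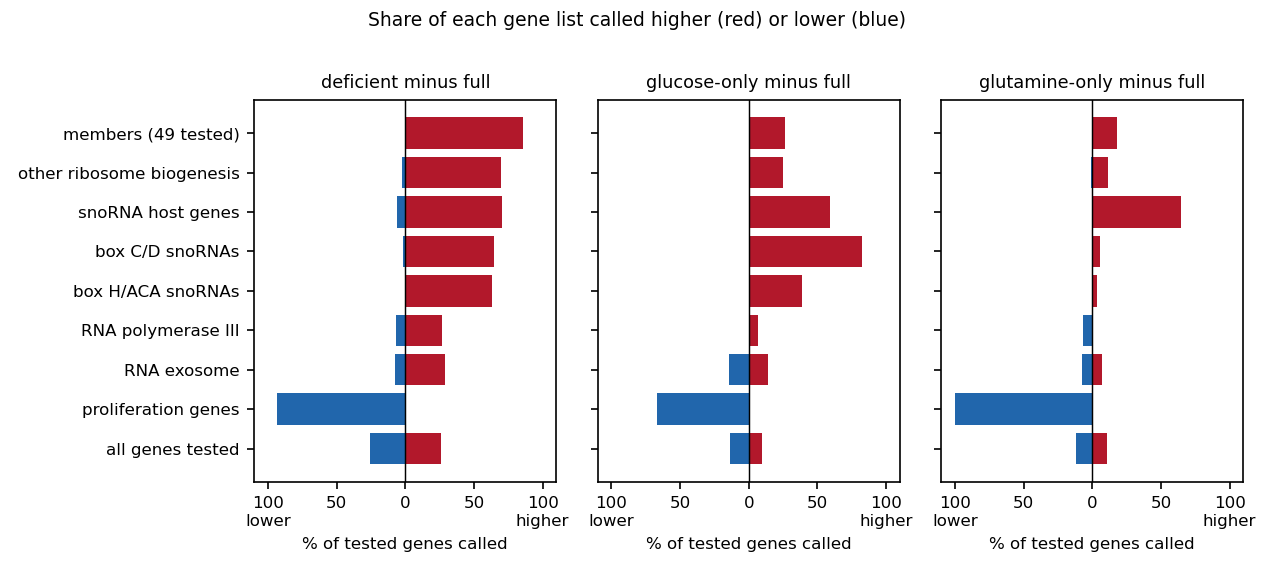
Percent of the tested genes of each list that were called higher (red, right of 0) or lower (blue, left of 0) in deficient, glucose-only and glutamine-only medium, each against full medium; the bottom bar gives all 9270 genes tested. The ribosome biogenesis bars lie mainly on the higher side in all 3 panels and the proliferation bar on the lower side, and equal totals move the lists as given in the text.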

How the data were processed

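RNA was sequenced from 12 libraries of MDA-MB-231 cells, 3 for each of 4 media. Per the labels' protocols, libraries were stranded total RNA after ribosomal RNA depletion. Per the submitters' processing notes, FastQC, HISAT2, Subread and DESeq2 were used with GRCh38.p14, and versions, annotation release and strand setting are not given in the sources used here. The deposited signal values are numbers of reads for each gene over a size factor of the library; in every library 100% of values came out as whole reads within 0.01.

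Genes at 10 or more in at least 3 libraries were tested with limma 3.58.1 (R 4.3.3), with a trended prior, on log2(value + 1), as a mean per medium over all 12 libraries. Tests are two-sided, with Benjamini-Hochberg adjustment over 9270 genes. Alternatives were pseudocounts of 0.5 and 8, other filters and scalings, a constant prior, edgeR 4.0.16 and DESeq2 1.42.0 on the recovered reads, the replicate letter as a block, the compared media alone, and each library left out. edgeR called 2546 genes higher and 2458 lower in deficient against full medium.

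The genes and lists were chosen with earlier results of these data known. Values in every library are given for 16 anchor genes by role, where tested, for the 5 highest and 3 lowest changes against full medium in each other medium and for the 5 largest interaction values; of each other list, MYC and up to 3 genes with the largest change past the threshold in deficient against full medium are named, and TTF1, DDX56 and the values of other genes in brackets were added after they were seen. Positions and start regions are from RefSeq (GRCh38.p14), matched by symbol, and exon overlap is from GENCODE 29, an older annotation than the one used for the values.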

Additional observations from a re-analysis of the deposited data

Results flagged for a closer look

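For 18 genes the change on loss of both nutrients differed from the sum of the changes on loss of each, by the interaction term on the log2 scale. Its value was 1.56 for UTP4, which was tested through its deficient libraries, 1.48 for GNL2, 1.25 for PES1, 1.25 for GNL3, 1.17 for RIOK2, 1.08 for BOP1, 1.02 for DDX21, 1.01 for TSR1 and 1.00 for UTP18. It was 0.99 for NOB1, 0.98 for DDX18, 0.93 for NOP58, 0.80 for RIOK1, 0.74 for NPM1, 0.73 for DDX10, 0.58 for NAT10, 0.51 for NCL and 0.47 for UTP20. Of these, 10 passed the threshold under every alternative in which they were tested. Over all genes tested, 15.5% had an interaction above 0 and past the threshold, and 11% had one below 0. With equal totals 12 of the 49 passed above 0, where 1076 of the 9270 genes did. By DESeq2 12 passed above 0, where 996 genes did in all, a count without a share since the number of all genes it tested is not given here.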

How the results depend on the processing

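No called gene changed direction in any comparison under any alternative. Called under every alternative were 30 of 42 genes in deficient against full medium, 3 of 13 in glucose-only and 3 of 9 in glutamine-only against full medium, 26 of 36 in deficient against glucose-only, 30 of 44 in deficient against glutamine-only, and 0 of 5 in glucose-only against glutamine-only. With genes of a mean of at least 100 only, 8 of the 53 were tested, and 7 rose in deficient, 4 in glucose-only and 3 in glutamine-only against full medium, 7 in deficient against each single-nutrient medium, 2 in glucose-only against glutamine-only, and 6 interactions passed, since fewer genes were tested. Of all genes in that setting, 558 rose in deficient, 248 in glucose-only and 309 in glutamine-only against full medium. The number of all genes tested in that setting is not given here, so that these counts have no share beside them. The other all-gene counts were 526 in deficient against glucose-only, 492 against glutamine-only, 174 in glucose-only against glutamine-only and 449 interactions above 0. Without a filter 8 rose in glucose-only against full medium, where 748 of the 32493 genes with a read did. In glucose-only against glutamine-only 1 was higher and 0 lower, where 373 and 640 genes were. With equal totals 4 rose in glucose-only and 3 in glutamine-only against full medium, where 4.27% and 6.79% of all genes tested did. In that setting 1 was lower in deficient against glucose-only, where 2437 of the 9270 genes were. In glucose-only against glutamine-only 0 were higher, where 245 of the 9270 genes were. DESeq2 gave 6 in glucose-only and 4 in glutamine-only against full medium, where it called 549 and 742 genes higher in all. In glucose-only against glutamine-only it gave 0 higher and 0 lower, where it called 235 and 508 genes in all. The number of all genes that DESeq2 tested is not given here, so that its counts have no share beside them. A constant prior gave 5 in glutamine-only against full medium, where 846 of the 9270 genes rose. It gave 2 higher and 0 lower in glucose-only against glutamine-only, where 262 and 555 of the 9270 genes were. The cause was not tested for these beyond the number of genes tested. With 1 library left out, 8 to 13 genes rose in glucose-only and 5 to 9 in glutamine-only against full medium, and 1 to 4 were higher and 0 to 1 lower in glucose-only against glutamine-only; deficient against full medium gave 40 to 43. With the replicate letter as a replicate block the counts were 44 in deficient, 13 in glucose-only and 9 in glutamine-only against full medium. Of the 9270 genes, 2472, 897 and 1019 rose in these comparisons with the block. Deviations of same-lettered libraries of different media had correlations of -0.0289 to 0.067 over 18 pairs. Libraries of unlike letters had -0.0728 to 0.0392 over 36 pairs. No correlation was over 0.1, and the letters are not taken to pair samples. The fit with only the compared media was not run for the interaction. Depth limits the low genes: 1 read was worth 0.661 to 1.3, and 4 of the 53 were too low to test.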

Other observations

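The small nucleolar RNAs that the snoRNP proteins carry were also measured, in classes taken after the data had been seen. Of 51 box C/D genes tested, 33 rose and 1 fell in deficient, 42 rose and 0 fell in glucose-only and 3 rose and 0 fell in glutamine-only against full medium. Of all genes tested, 26.3% rose and 25.5% fell in deficient, 9.44% and 13.5% in glucose-only and 10.8% and 11.6% in glutamine-only medium. In glucose-only against glutamine-only medium 32 box C/D genes were higher and 0 lower, where 5.05% and 8.26% of all genes tested were. With equal totals the box C/D counts in these 4 comparisons were 11 and 5, 30 and 0, 3 and 0, and 27 and 0. Of all genes tested at equal totals, 12.6% rose and 40.7% fell in deficient, 4.27% and 23.2% in glucose-only and 6.79% and 14.7% in glutamine-only medium. In glucose-only against glutamine-only medium 245 of the 9270 genes were higher and 907 lower. Of 57 box H/ACA genes, 36 rose in deficient, 22 in glucose-only and 2 in glutamine-only against full medium, with 0 falling. With equal totals 8 rose and 4 fell in deficient medium, so that the share that rose was near the 12.6% of all genes. SNORD53B, in an intron of WDR43, had means of 161 ± 23.3 in deficient, 142 ± 7.04 in glucose-only, 91.7 ± 16.9 in glutamine-only and 62.8 ± 18.7 in full medium (SD, n = 3 each). SNORD82, in an intron of NCL, had means of 292 ± 60.1 in deficient, 373 ± 29.5 in glucose-only, 219 ± 34.6 in glutamine-only and 198 ± 37.8 in full medium (SD, n = 3 each), where its host NCL was highest in deficient medium.

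Among RNAs of ribosomal RNA processing, RMRP, the RNA of RNase MRP, had means of 18655 ± 2712 in deficient, 13142 ± 1592 in glucose-only, 13426 ± 419 in glutamine-only and 9665 ± 1383 in full medium (SD, n = 3 each), with a log2 change of 0.95 ± 0.19 (SE, adjusted p = 0.000153) in deficient against full medium. The U3 gene SNORD3A had a log2 change of 0.48 ± 0.16 (SE, adjusted p = 0.0145). SNORD118 and RPPH1 are listed at 0 in every library.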
